A study of Mus musculus with 1920 samples.

Results

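Microglia of 2 untreated hindbrain regions, the cerebellum and the facial nucleus, were compared in single cells that had been sorted onto one plate. The facial nucleus is the brainstem nucleus whose motor neurons drive the muscles of the face, and the cerebellum lies behind it and coordinates movement. Wells labelled with either region and with no treatment were taken, and a well was used when it held 20000 or more gene counts, 500 or more detected genes, under 25% mitochondrial reads and under 50% spike-in reads. Of 380 such wells 342 were used, among 1644 used wells of the whole series. The cerebellum gave 181 cells, 44 to 47 from each of 4 replicates, and the facial nucleus gave 161 cells, 35 to 45 from each of 4 replicates. All animals were CD1 mice, an outbred stock, aged 16 weeks, and neither group carried an allele or received an agent. Antibodies to the myeloid markers CD11b and CD45 and to Ly6G, Ly6C and CD206, which mark other myeloid cells, were used for the sort. Each cell became a Smart-seq2 library, in which whole transcripts are read without molecular identifiers.

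Microglia are the macrophages that live within brain and spinal cord tissue. They take up dying cells and myelin debris, and the cholesterol in that material leaves the cell through transporters of the ATP-binding cassette family, mainly ABCA1 and ABCG1, onto lipoproteins such as apolipoprotein E. The genes of this export route are switched on by the liver X receptors (LXR), nuclear receptors that sense oxidised cholesterol. Most microglia in a healthy brain are in a homeostatic state, with high levels of the receptor gene P2ry12 and the secreted protease inhibitor gene Cst3.

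Counts of the used cells were summed for each replicate and region, and these 8 sums held 8626861 to 13009743 counts. Levels are CPM, the counts of a gene relative to all counts of its sum, scaled with edgeR over 24 sums of 6 untreated regions, and errors of levels are SDs over 4 sums. The cerebellum filled plate columns 1 to 12 and the facial nucleus columns 13 to 24, so plate side and region cannot be told apart. Per replicate, the median number of detected genes per cell was 2036, 2298.5, 2371.5 and 2588 in cerebellum and 2581, 2765.5, 2668 and 2689 in facial nucleus. The ranges overlapped slightly, between cerebellum replicate 4 and facial nucleus replicate 1, and the difference of the means did not pass an exact permutation test (two-sided p = 0.0571, 0.286 adjusted over 5 quality measures, with 0.0286 the smallest p that 4 against 4 allows). The other 4 measures also missed the threshold, with exact permutation p-values of 0.171 to 0.6. These tests treated the 8 values as independent, although the series' design text says that the untreated regions came from the same mice. The share of wells used was 95.3% ± 4.29 (SD, n = 4) in cerebellum and 84.6% ± 9.36 in facial nucleus, and replicates 3 and 4 of the facial nucleus had the lowest shares, 77.1% and 76.1%. The 4 wells of the plate labelled negative held 335 to 502 gene counts.

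Both groups carried the defining microglial RNAs at high level. P2ry12 was at 6725 to 7562 CPM in cerebellum and 6350 to 7622 in facial nucleus, and all 342 cells had a P2ry12 read. Csf1r, the receptor gene for the survival factor CSF1, was at 7265 ± 1059 and 6824 ± 1206 CPM. Cx3cr1, the fractalkine receptor gene, was at 7031 ± 555 and 6348 ± 552 CPM, Tmem119 at 3209 ± 524 and 3881 ± 576, and the lineage transcription factor gene Sall1 at 556 ± 151 and 581 ± 73.4. None of the 10 microglia markers was called, and the sums of the 2 regions overlapped in the 5 named here. The negative wells had reads of such abundant genes too, with a P2ry12 read in 16 of 20 over the series, so a read alone does not identify a cell.

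Markers of other cell types were read at these levels. The border macrophage markers Mrc1, which encodes CD206, and Cd163 stood at 0 to 5.1 and 0 to 2.5 unscaled CPM in the 8 sums, and the sums of the neutrophil, T and NK cell and motor neuron lists stayed at or below 24.1 CPM. The summed B cell list reached 1344 CPM mostly through the immunoglobulin gene Ighm, while the B cell receptor component Cd79a was at 0 to 1 CPM. The monocyte list, of which 5 of 7 tested members were lower in cerebellum, summed to 11.9 to 52 CPM in cerebellum and 17.9 to 293 in facial nucleus. The highest monocyte sum was that of facial nucleus replicate 1, with Plac8 at 166 and the defining marker Ccr2 at 29.3 unscaled CPM, and Ccr2 was at 0 to 24.1 in the other 7 sums. The general neuron list summed to 46.9 to 65.1 CPM in cerebellum and 14.3 to 57.4 in facial nucleus, and the cerebellar neuron list to 38.4 to 81.9 and 2.5 to 71.2. The 10 tested endothelial and pericyte markers were lower in cerebellum in 8 cases, and their sum was 29.1 to 60.9 CPM in cerebellum against 83.3 to 197 in facial nucleus, which did not overlap. Ly6a, an endothelial surface protein gene, had no read in the 4 cerebellum sums and stood at 52.3, 16.9, 0 and 27.7 CPM in facial nucleus. The defining markers Cldn5 and Pecam1 had unscaled levels of 0 to 6.61 and 0.103 to 81.1 CPM over the 8 sums. Scaled levels of Pecam1 were 11.9 ± 18 CPM in cerebellum and 40.5 ± 29.7 in facial nucleus, with overlapping sums. Among 10 tested oligodendrocyte markers 8 were lower in cerebellum. Their summed levels overlapped (251 to 409 and 338 to 460 CPM). Over all genes 12260 of 22907 were lower in cerebellum, and under a mean of 10 CPM 7862 of 13383 were. The part of these marker RNAs in the differences given next was not tested.

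A single gene passed the test between the 2 regions. edgeR's quasi-likelihood test with Benjamini-Hochberg adjustment called 1 of 22907 genes (0.00437%), the ribosomal RNA gene CT010467.1 (ENSMUSG00000106106, minus strand, chromosome 17, 39846353 to 39848827, GRCm38). Its scaled levels were 1658, 1606, 1609 and 1840 CPM in cerebellum and 2720, 2872, 3564 and 3554 CPM in facial nucleus. The 2 groups lay far apart, and the 4 cerebellum sums were close together. CT010467.1 averaged 1678 ± 111 CPM in cerebellum and 3177 ± 445 in facial nucleus, and its log2 fold change was -0.92 with an SE of 0.13 (adjusted p = 0.000643). The gap lay in the read level per cell and not in the number of cells with a read. Whether that level follows the ribosomal RNA content of the cells was not tested. Reads were present in 180 of 181 cerebellum and 161 of 161 facial nucleus cells, and the median level among cells with a read was 1668, 1635, 1715 and 1671 CPM per cerebellum replicate against 2923, 3025, 3104 and 3102 CPM. CT010467.1 kept its sign in 21 of 21 other settings that hold it, and its call was lost in 3 of them: when only the 8 sums were fitted (adjusted p = 0.125), with limma voom (adjusted p = 0.871) and for means of log values per cell (adjusted p = 0.714).

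CT010467.1 sits in a cluster of ribosomal RNA sequences, where Gm26917 lies directly beside it and Gm42418 overlaps it, both on the other strand. These neighbours were looked at after their values were seen. Gm26917 (chromosome 17, 39843013 to 39846341) was at 1360 ± 123 CPM in cerebellum and 1661 ± 92.2 in facial nucleus, with scaled ranges that touched (1258 to 1539 and 1538 to 1751; log2 fold change -0.29 ± 0.16, adjusted p = 0.538). Gm42418 stood at 3.95 to 9.28 CPM in cerebellum and 8.13 to 11.3 in facial nucleus. Smart-seq2 does not mark strand, so reads of CT010467.1 and Gm42418 cannot be told apart where they overlap. The mitochondrial ribosomal RNAs, which come from another genome, were also lower in cerebellum: mt-Rnr2 was at 1814 ± 300 CPM in cerebellum and 2730 ± 427 in facial nucleus, and mt-Rnr1 at 414 ± 44.5 and 648 ± 114, without overlap in either. Neither passed the test (log2 fold changes -0.59 ± 0.22 and -0.65 ± 0.27, adjusted p = 0.422 for both with edgeR). Nuclear genes for making ribosomes showed no such lean: of 28 tested genes of ribosome biogenesis and RNA polymerase I, 13 were higher and 15 lower, none was called and none had an unadjusted p under 0.05.

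**Figure D1:**
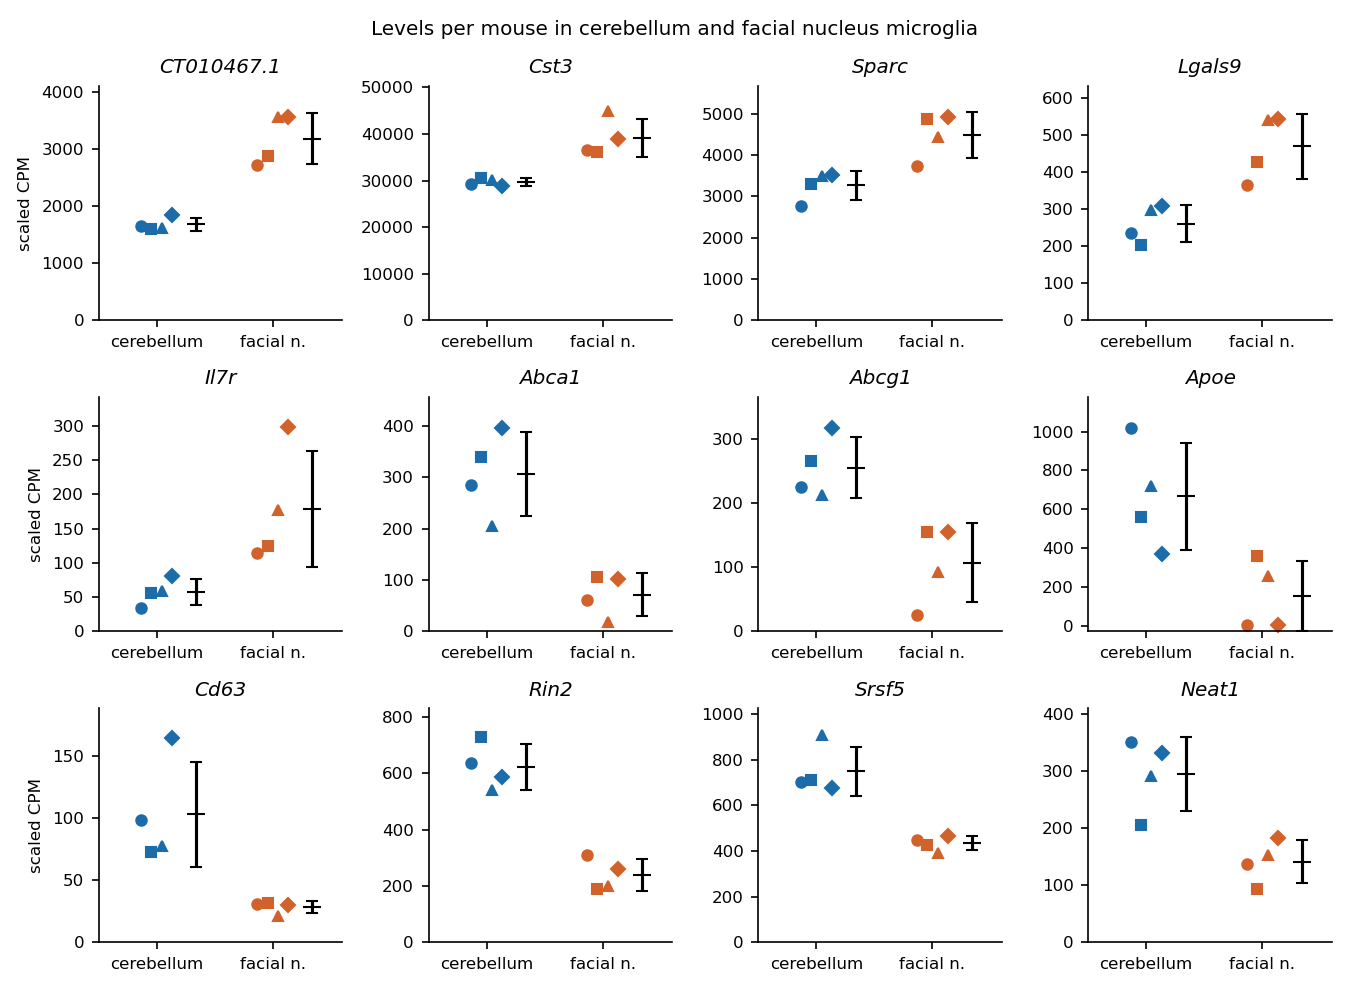
Scaled CPM of 12 genes in each of 4 cerebellum sums (blue) and 4 facial nucleus sums (orange); marker shapes are replicate numbers 1 to 4, black bars are mean and SD, and each panel has its own linear axis. In all 12 panels the 2 regions do not overlap, and only CT010467.1 passed the test over all genes.

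Below the threshold, an unadjusted p under 0.05 was given to 2578 genes (11.3%), 844 higher in cerebellum (3.68%) and 1734 lower (7.57%). Most of these were rare RNAs: 2113 of 13383 genes under a mean of 10 CPM had such a p (15.8%), 589 higher (4.4%) and 1524 lower (11.4%). Among 9524 genes at 10 CPM or more it was 465 (4.88%), 255 higher (2.68%) and 210 lower (2.2%). The sums of the 2 regions did not overlap for 650 of all genes (2.84%), 235 with cerebellum higher (1.03%) and 415 lower (1.81%). At 10 CPM or more the share without overlap was 3.84%, with 191 genes higher (2.01%) and 175 lower (1.84%). The genes named next are the leading ones of this group by p, and their p-values did not pass after adjustment.

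The cholesterol exporter gene Abca1 came second of all genes by p. Abca1 (ENSMUSG00000015243, chromosome 4, 53030787 to 53159895) stood at 285, 340, 205 and 396 CPM in cerebellum and at 61.5, 105, 17.9 and 102 in facial nucleus. The lowest cerebellum sum was above the highest facial nucleus sum. The means were 306 ± 81.2 and 71.8 ± 41.1, a log2 fold change of 2.09 ± 0.39 with an adjusted p of 0.0849 in edgeR. With the replicate number as a block the adjusted p of Abca1 was 0.00557, and its call was also made without a filter on low counts (adjusted p = 0.0126), among genes read in 20% of cells (0.012), without cerebellum replicate 3 (0.0476) and with DESeq2 (1.67e-05). In the other 17 of 22 alternatives Abca1 was not called. Leaving out 1 sum gave edgeR adjusted p-values of 0.0476 to 0.47, and its log2 fold change was 1.68 to 2.34 over all alternatives.

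Abcg1, the partner exporter that loads cholesterol onto high-density lipoprotein, lay on chromosome 17 (31057698 to 31115777) and stood at 226, 267, 212 and 318 CPM in cerebellum and at 26, 155, 92.2 and 156 in facial nucleus. Again the sums did not overlap, and facial nucleus replicate 1 was far below its group. The log2 fold change was 1.25 ± 0.35 with an adjusted p of 0.422 in edgeR. Apoe, the gene of the lipoprotein that accepts this cholesterol, was at 1018, 559, 720 and 369 CPM in cerebellum and at 0.971, 358, 256 and 0.95 in facial nucleus (log2 fold change 2.12 ± 1.21, adjusted p = 0.6 in edgeR). Apoe was added after its values were seen. It rested on few cells, since 31% of the Apoe counts in cerebellum and 48.5% of those in facial nucleus came from 1 cell.

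All 15 tested LXR target genes and receptors had a higher fitted level in cerebellum, against 10391 of 22907 genes (45.4%) over the whole table. Among genes at 10 CPM or more, the share higher was 53.8%. The median log2 fold change was 0.49, beside -0.09 for all genes and 0.06 for genes at 10 CPM or more. None was called, and 3 of 15 were higher with an unadjusted p under 0.05, against 3.68% of all genes (Abca1, Abcg1 and Apoc1, which was at 0 to 3.24 CPM in cerebellum and at 0 in facial nucleus). For 3 of 15 the sums did not overlap (Abca1, Abcg1 and Apoe), against 2.84% of all genes and 3.84% at 10 CPM or more. Abca1 and Abcg1 were markers given for this comparison and leading genes by p, so these counts are not independent support. Without Abca1, Abcg1 and Apoe, the summed unscaled levels of the other 12 members overlapped. These sums were 1318 to 2213 CPM in cerebellum and 1213 to 1798 in facial nucleus. The phagocytic receptor gene Mertk was at 712 ± 188 and 549 ± 129 CPM, and Mylip, whose product degrades the LDL receptor, at 253 ± 116 and 195 ± 40, both with overlapping sums. The receptor genes were Nr1h2, at 81.4 ± 29.1 and 57.8 ± 27.5 CPM, and Nr1h3, at 3.06 ± 5.59 and 1.07 ± 1.32. The number higher was 12 of 15 with limma voom, 13 of 15 with equal weight for each cell and 11 of 15 for means of log values per cell.

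The LXR dimer is known to bind a direct repeat spaced by 4 bases, and the Abca1 promoter is known to carry one. The stretches before the start of Abca1 and Srebf1 are shown because these 2 are the LXR list members whose RefSeq promoter window held the searched letters. Sequences are from RefSeq (GRCm38.p6), read 5′ to 3′ on the minus strand, the strand of both genes. Abca1 lies at chr4:53159896-53159995 and Srebf1 at chr11:60210569-60210668, and capitals mark the match, which in both reads on the opposite strand.
Abca1: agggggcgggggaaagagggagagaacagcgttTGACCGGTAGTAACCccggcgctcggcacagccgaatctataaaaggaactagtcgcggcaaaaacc
Srebf1: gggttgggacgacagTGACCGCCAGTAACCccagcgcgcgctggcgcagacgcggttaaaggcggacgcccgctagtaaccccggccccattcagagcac
The letters searched, on both strands, were GGTNA and, after 5 further bases, GGTCA, a loosened form chosen with the Abca1 element in mind. They occurred in 68 of 32851 promoter windows (0.207%), each reaching from 250 bases before a start site to 50 after it. In Abca1 the match covered bases 67 to 53 before the start and in Srebf1 bases 182 to 168 before it. The stricter form, AGGTCA at both ends of 4 free bases, was in 5 windows (0.0152%) and in none of 16 windows of the list. Of the 15 members 11 were in the promoter table, and Abcg1, Apoc1, Scd2 and Smpdl3a were not. Srebf1, the lipid synthesis regulator that shares the match, was at 31.4 ± 29.2 CPM in cerebellum and 25.6 ± 17.4 in facial nucleus (log2 fold change 0.29 ± 0.83, adjusted p = 1 in edgeR), with overlapping sums.

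In the wider list of cholesterol efflux and lipid uptake, 17 of 23 tested genes were higher in cerebellum, with a median log2 fold change of 0.30. None was called, 5 of 23 had an unadjusted p under 0.05, all higher (3.68% of all genes), and summed unscaled levels did not overlap (3572 to 4217 and 2394 to 2951 CPM). Abca1 and Abcg1 are among these 5, so that count is not independent support either. Without Abca1, Abcg1 and Apoe the sums of the other 20 members overlapped (2371 to 3100 and 2189 to 2692 CPM). Lipa, the lysosomal acid lipase gene, was at 209 to 372 CPM in cerebellum and 81.5 to 287 in facial nucleus (log2 fold change 0.81 ± 0.33, adjusted p = 0.422 in edgeR). Its sign turned to -0.26 for means of log values per cell, where 9 of the 23 genes were higher. Of the cholesterol synthesis genes 9 of 22 were higher (40.9%, beside 45.4% of all genes and 53.8% at 10 CPM or more). Their median was -0.27, with none called and none at an unadjusted p under 0.05.

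Both exporters were read in more cerebellum cells. After every cell was thinned to 20000 reads, 27.7%, 38.6%, 31.8% and 43.5% of cells had an Abca1 read in the cerebellum replicates, against 11.1%, 20.5%, 8.11% and 31.4% in facial nucleus. These ranges overlapped at facial nucleus replicate 4. For Abcg1 the shares were 34%, 31.8%, 40.9% and 52.2% against 20%, 25%, 18.9% and 22.9%, which did not overlap. Unthinned shares were 44.8% and 27.5% for Abca1 and 50.2% and 26.5% for Abcg1 as means over replicates. Among cells with a read, the median Abca1 level averaged 440 CPM in cerebellum and 108 in facial nucleus, and that of Abcg1 387 and 277. Each of the 2 genes had a read in 2 of the 20 negative wells of the series.

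**Figure D2:**
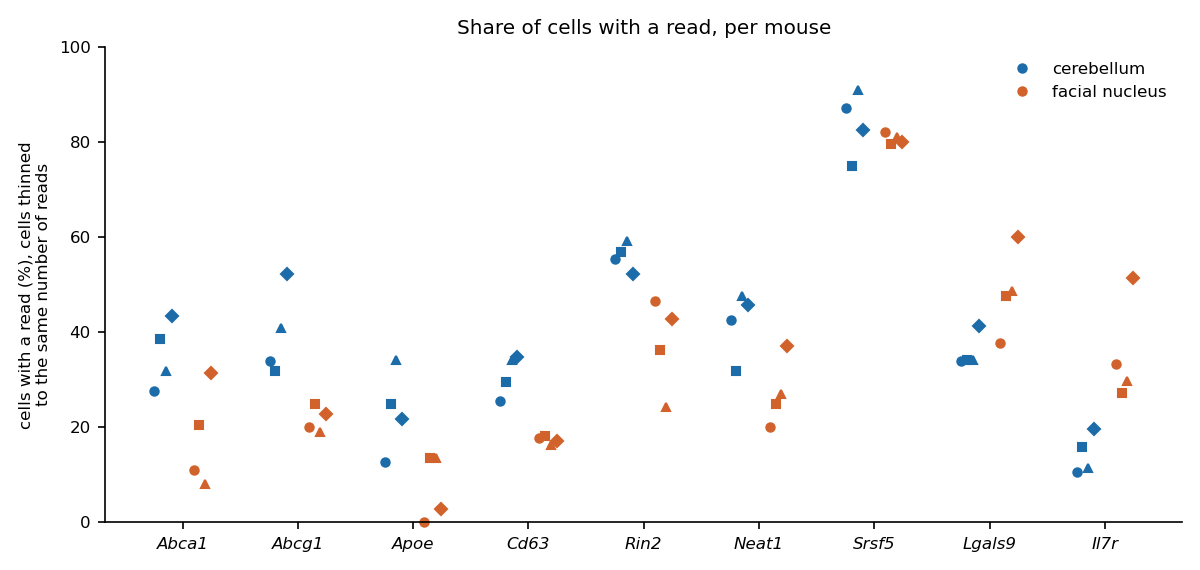
Percentage of cells with a read of each gene after thinning cells to 20000 reads, with 1 point per replicate (blue cerebellum, orange facial nucleus; marker shapes are replicate numbers). Abcg1, Cd63, Rin2 and Il7r separate the regions, and Abca1, Neat1, Lgals9, Apoe and Srsf5 overlap.

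The other leading genes that were higher in cerebellum included regulators of endosomes, RNA splicing and signalling. Rin2, which activates the early endosome GTPase RAB5, was at 636, 729, 540 and 585 CPM in cerebellum and at 310, 188, 198 and 261 in facial nucleus (log2 fold change 1.38 ± 0.30, adjusted p = 0.322 in edgeR). Cd63, a tetraspanin gene of late endosomes and exosomes, was at 98.4, 72.8, 77.5 and 164 CPM against 31.1, 31.6, 21.4 and 30 (1.86 ± 0.44, adjusted p = 0.422), and after thinning 25.5% to 34.8% of cerebellum cells had a Cd63 read against 16.2% to 18.2%. Srsf5, a splicing factor gene, was at 702, 712, 908 and 675 CPM against 451, 428, 394 and 465 (0.79 ± 0.20, adjusted p = 0.422). For all 3 genes the regions stood clear of each other.

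Aagab, a chaperone gene for clathrin adaptors, was at 177 ± 63.4 CPM in cerebellum and 45.2 ± 12.9 in facial nucleus. The calcium-responsive transcription factor gene Nfatc1 was at 197 ± 29.5 and 95 ± 23.4, and Rasa1, a brake on RAS, at 185 ± 108 and 63.5 ± 13.9. Slf2, a gene of DNA repair, was at 178 ± 64.3 and 59.9 ± 29.2, and Mrpl28, of the mitochondrial ribosome, at 55.4 ± 11.4 and 7.63 ± 5.16. Pxmp4, a peroxisomal membrane protein gene, was at 47.8 ± 27.4 against 2.9 ± 2.17 CPM and Zfp770 at 29.5 ± 24.6 against 2.89 ± 0.476. The log2 fold changes of these 7 genes ran from 1.05 to 4.04 and their edgeR adjusted p-values were 0.322 to 0.422. DESeq2 called all 12 leading higher genes and all 12 leading lower ones, among 3.52% of genes called (1.11% higher, 2.41% lower). The leading genes were chosen by their edgeR p on the same sums, so their DESeq2 calls are not independent support. Srsf5 was also called by limma voom (adjusted p = 0.0341), among 0.0349% of genes (0.00873% higher, 0.0262% lower).

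On the other side, Cst3 and Sparc, both secreted products of homeostatic microglia, were lower in cerebellum. Cst3 (chromosome 2, 148871722 to 148875692) was at 29340, 30646, 30040 and 28772 CPM in cerebellum and at 36559, 36163, 44909 and 38831 in facial nucleus, with no overlap and a narrow cerebellum range (log2 fold change -0.40 ± 0.10, adjusted p = 0.422 in edgeR). Sparc, a matricellular protein gene, was at 2754, 3305, 3493 and 3516 CPM against 3725, 4859, 4426 and 4925 (-0.46 ± 0.12, adjusted p = 0.422). Cst3 was called among genes read in 20% of cells (adjusted p = 0.0272) and with DESeq2 (0.00894). Cst3 was read in all 342 cells and in all 20 negative wells.

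Il7r and Lgals9 were also among the leading lower genes. Il7r, the interleukin 7 receptor gene, was at 34.5, 55.8, 58.6 and 80.6 CPM in cerebellum and at 115, 125, 177 and 298 in facial nucleus (log2 fold change -1.64 ± 0.43, adjusted p = 0.422 in edgeR). The regions did not overlap, and the share of cells with an Il7r read after thinning was 10.6% to 19.6% against 27.3% to 51.4%, and the median level in cells with a read averaged 190 and 226 CPM. Lgals9, encoding galectin 9, a ligand of the checkpoint receptor TIM-3, was at 204 to 308 CPM against 365.4 to 543 (-0.85 ± 0.22, adjusted p = 0.422).

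Serpinf1, the gene of pigment epithelium-derived factor, was at 39.2 ± 10.9 CPM in cerebellum and 151 ± 50.7 in facial nucleus. Atp6v1h, a subunit of the proton pump that acidifies lysosomes, was at 39.7 ± 12.5 and 132 ± 51.1. Cib1 was at 26.2 ± 17.3 and 92.6 ± 45.8, Rab3ip at 17.2 ± 7.46 and 76.5 ± 27.7, and Emc10, of a membrane protein insertion complex, at 51.8 ± 8.11 and 126 ± 52.2. The histone deacetylase gene Hdac5 was at 35.1 ± 6.33 and 107 ± 29.8, and the kinase gene Hipk2 at 8.11 ± 1.75 and 43.1 ± 28.1. In these 7 genes the sums did not overlap. Dnaaf2 did overlap, at 2.36 ± 1.58 and 49.9 ± 64.9 CPM, with 145 in facial nucleus replicate 1 and 1.69 in replicate 4.

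The leading genes were also read in the other 4 untreated regions. Among all 6 regions, cerebellum had the lowest mean of all 12 leading lower genes, and facial nucleus had the highest mean of 5 of them. Cerebellum was at the bottom for CT010467.1, whose 4 cerebellum sums lay below all 20 other sums (the other 4 regions had 3488 to 5595 CPM), and for Cst3, Lgals9, Emc10 and Hdac5, with the same separation from all 20. For the 12 leading higher genes, cerebellum had the highest mean of 10 and facial nucleus the lowest mean of 10. These genes were chosen by this contrast, so such ranks are a description.

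Facial nucleus and spinal cord had the lowest means of Abca1 and Abcg1. Abca1 was at 267 ± 70.2 CPM in cortex, 234 ± 44.1 in hippocampus and 224 ± 49.6 in corpus callosum, which overlapped with cerebellum, and at 102 ± 40.9 in spinal cord, which overlapped with facial nucleus. Abcg1 was at 428 ± 34.4 in cortex, 358 ± 69.8 in hippocampus and 226 ± 51.8 in corpus callosum, and at 106 ± 35 in spinal cord, beside 107 ± 61.9 in facial nucleus. Cd63 in facial nucleus, at 28.5 ± 4.81, lay below every sum of the other 5 regions, and so did Cd68, Pxmp4 and Zfp770; the lowest Cd63 sum outside these 2 regions was 36, in spinal cord. The reverse held for Srsf5 and Malat1, where the 4 cerebellum sums lay above all 20 other sums. The 6 regions lay on 3 plates, so only cerebellum and facial nucleus were compared within a plate.

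**Figure D3:**
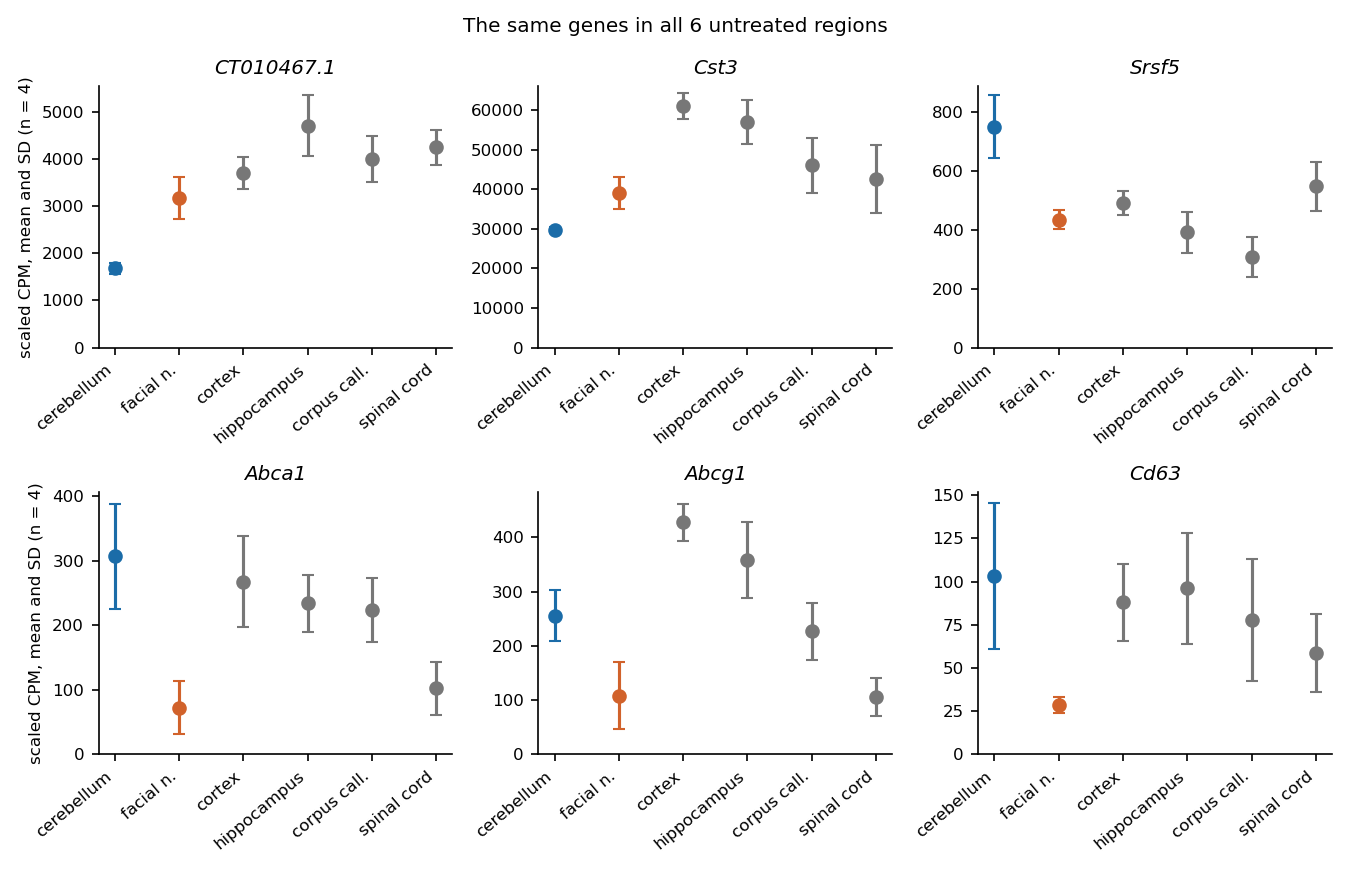
Mean and SD (n = 4) of scaled CPM of 6 genes in cerebellum (blue), facial nucleus (orange) and 4 other untreated regions (grey), on linear axes from 0. CT010467.1 and Cst3 are lowest and Srsf5 highest in cerebellum, while Abca1, Abcg1 and Cd63 are low in facial nucleus, with Abca1 and Abcg1 also low in spinal cord.

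Genes that microglia raise around damage were mixed. Of 31 tested genes of the disease-associated list 22 were higher in cerebellum, with a median log2 fold change of 0.54, and none was called. Over all genes 45.4% were higher, and among genes at 10 CPM or more 53.8% were. Those with an unadjusted p under 0.05 were 8 higher and 2 lower, beside 3.68% and 7.57% of all genes and 2.68% and 2.2% of genes at 10 CPM or more. Besides Cd63, the lysosomal membrane gene Cd68 was at 1165, 1052, 1034 and 1519 CPM in cerebellum and at 790, 842, 733 and 903 in facial nucleus, with no overlap (log2 fold change 0.55 ± 0.18, adjusted p = 0.422 in edgeR). The adhesion gene Cadm1 was at 405 ± 53.6 and 217 ± 50.4 CPM, and Ank at 90.5 ± 31.9 and 15.4 ± 19.5. The cathepsin genes Ctsb and Ctsl were at 3263 ± 1314 and 1015 ± 133 CPM in cerebellum against 2338 ± 264 and 699 ± 157, both with overlapping sums. The 2 lower genes were Tyrobp, the adaptor of the receptor TREM2, at 1047 ± 120 against 1417 ± 91.2, and B2m, the light chain of MHC class I, at 1586 ± 278 against 2216 ± 413. Among 33 lysosomal genes 25 were higher, with a median of 0.18 and 7 at an unadjusted p under 0.05, all higher; for means of log values per cell 13 of 33 were higher.

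In the homeostatic list 11 of 25 genes were higher (44%, beside 45.4% of all genes and 53.8% at 10 CPM or more). The other 14 were lower, and the median of the list was -0.04. Its summed unscaled level was 96530 to 100242 CPM in cerebellum and 102916 to 114535 in facial nucleus, without overlap, and without Cst3 the sums overlapped (66602 to 70044 and 63622 to 75626 CPM). For 3 of 25 members the regions did not overlap (12%, beside 2.84% of all genes and 6.12% of genes at 100 CPM or more). Cst3 and Sparc were the 2 members at an unadjusted p under 0.05, and Cst3 is a marker given for this comparison. Among 16 tested complement genes 6 were higher and 10 lower. C1qa, a chain of the initiator C1q, was at 3352, 3803, 3309 and 4124 CPM in cerebellum and at 4311, 4281, 4923 and 4657 in facial nucleus, and C1qb at 4022 ± 473 and 4722 ± 395 (log2 fold changes -0.32 ± 0.12 and -0.23 ± 0.14, adjusted p = 0.422 and 0.653 in edgeR). MHC class I genes were lower in 12 of 16 cases and MHC class II genes in 5 of 10, none called.

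RNAs that stay in the nucleus were higher in cerebellum in 5 of 6 cases, and those made in mitochondria were lower in 9 of 9 (8 of 9 with the replicate block, with equal weight for each cell and in several other settings). Of all 22907 genes 10391 were higher (45.4%) and 12260 lower. At 100 CPM or more, 1066 of 1862 genes were higher and 796 lower. Neat1, the scaffold of nuclear paraspeckles, was at 351, 205, 291 and 332 CPM in cerebellum and at 137, 93.2, 152 and 183 in facial nucleus, and Malat1, of nuclear speckles, at 7837, 6689, 6352 and 6116 against 5719, 5824, 5022 and 5992 (log2 fold changes 1.06 ± 0.33 and 0.26 ± 0.11, adjusted p = 0.422 for both in edgeR). In both the regions did not overlap. mt-Nd1, a subunit gene of respiratory complex I, was at 2015 ± 106 and 2928 ± 565 CPM, with overlapping sums. In the same cells the number of detected genes per cell, given above, overlapped between regions and did not pass its test (exact permutation p = 0.0571), and the median mitochondrial share was 0.85% ± 0.089 against 1.05% ± 0.228. The part of these measures in the gene differences was not tested.

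**Figure D4:**
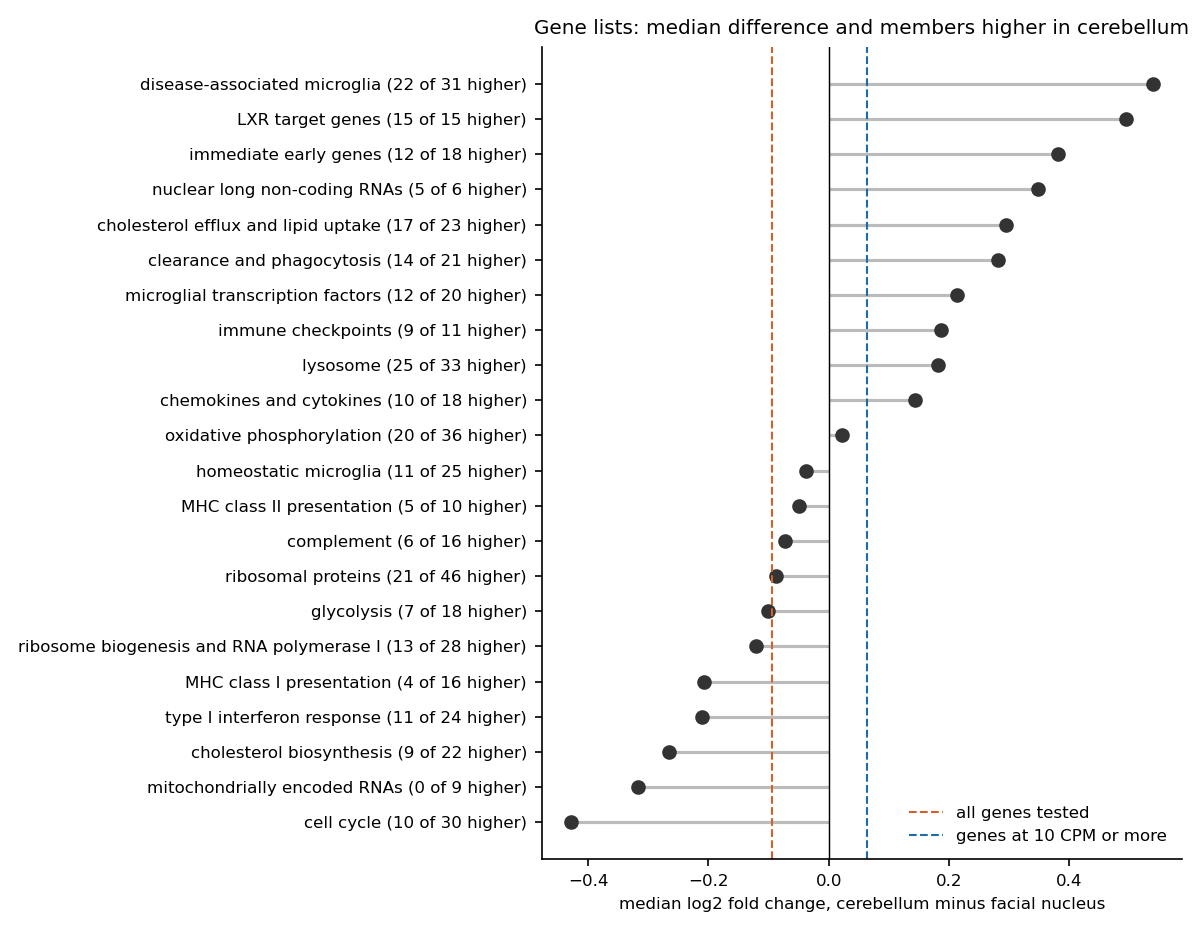
Median log2 fold change of the tested members of 22 gene lists (points), with the number of members higher in cerebellum in brackets and dashed lines at the median of all genes (-0.09) and of genes at 10 CPM or more (0.06). Disease-associated and LXR target genes lie furthest to the right, and cell cycle genes and mitochondrial RNAs furthest to the left.

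Some genes were read in few cells, and 1 cell held most of their counts in a region. The chemokine gene Ccl4 was at 250, 17.8, 17.5 and 12.4 CPM in cerebellum and at 0 to 0.108 in facial nucleus, without overlap. Of its cerebellum counts 83.5% came from 1 cell, and 2.2% of cerebellum cells had a read after thinning. Without cerebellum replicate 1 the log2 fold change of Ccl4 was 7.93 (adjusted p = 0.464 in edgeR), and limma voom called it (8.36, adjusted p = 0.0346). Among interferon genes, Ifi27l2a was at 324 CPM in facial nucleus replicate 1 and 3.91 in replicate 4, with 80% of the facial nucleus counts from 1 cell. The cytokine gene Osm was spread wider, at 58.6, 33.7, 50 and 73.8 CPM in facial nucleus against 5.05, 15.3, 0.698 and 0.149 in cerebellum (log2 fold change -3.35 ± 1.05, adjusted p = 0.422 in edgeR), and 11.6% of facial nucleus cells had an Osm read after thinning against 1.1%. Mki67, a marker of dividing cells, had a read in 4 cerebellum and 11 facial nucleus cells. Of 30 cell cycle genes 10 were higher (33.3%, beside 45.4% of all genes and 39.3% of genes under 10 CPM), none called.

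Replicates of equal number moved together in a set of genes. The series' design text says that the untreated regions came from the same mice, but no label says that equal numbers are equal mice. Genes were therefore ranked in the other 4 regions by how far their levels depended on the replicate number, and the 50 leading genes among 5966 were then read in cerebellum and facial nucleus. Deviations of equally numbered sums correlated at 0.321 to 0.443 across these 50 genes, those of differently numbered sums at -0.331 to 0.109, and each sum correlated best with its own number. Over all 5966 genes the values were 0.0236 to 0.0379 and -0.0248 to 0.000606. Over 9524 genes at 10 CPM or more in the 2 compared regions they overlapped, at 0.00033 to 0.0264 and -0.0273 to 0.0219. Genes are not independent replicates, and this check was made after the calls of the blocked fit were known.

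The first of these genes, Tpm3-rs7, a tropomyosin-related gene, stood at 1.17, 79.6, 110 and 2.16 CPM in cerebellum replicates 1 to 4 and at 6.69, 63.5, 88.3 and 1.79 in facial nucleus. It had the same order of low, high, high and low in cortex, hippocampus, corpus callosum and spinal cord. Ldhb, a lactate dehydrogenase gene, was at 12.2 and 0 CPM in replicate 4 of the 2 regions and at 312 in replicate 2 of both. The microglia marker Fcrls, a receptor-like gene ranked 90 and so outside the 50, was picked after its values were seen. It was at 432, 1037, 577 and 1985 CPM in cerebellum and at 281, 1143, 183 and 1657 in facial nucleus, so replicates 2 and 4 were high in both.

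**Figure D5:**
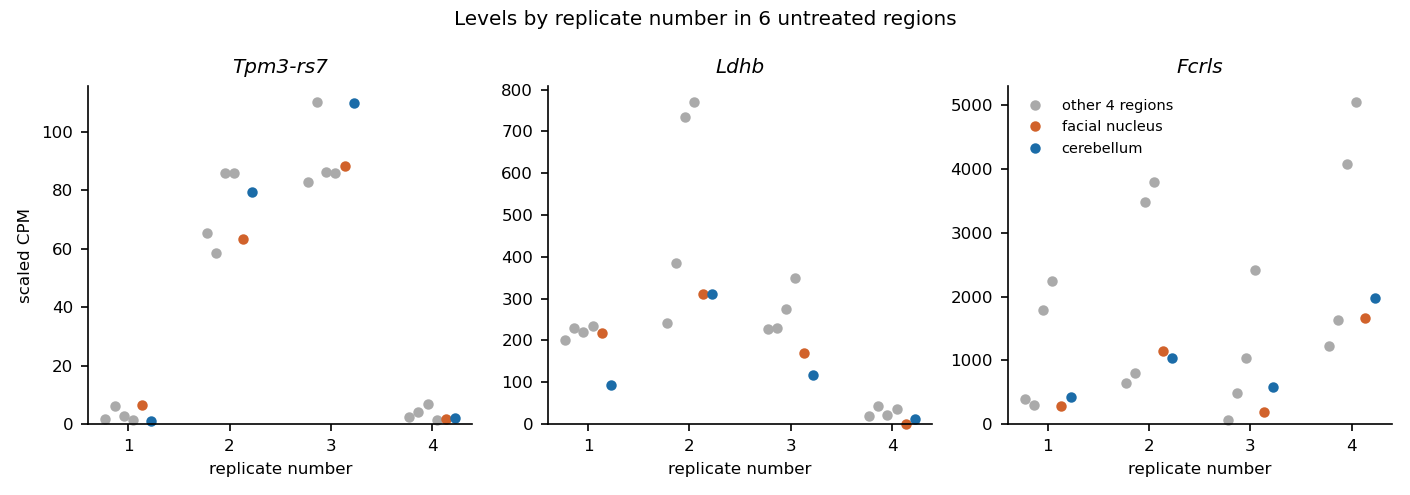
Scaled CPM of 3 genes against replicate number, with 1 point per sum (blue cerebellum, orange facial nucleus, grey the other 4 untreated regions), on linear axes from 0. Tpm3-rs7 is high in replicates 2 and 3 and near 0 in 1 and 4 in all 6 regions, Ldhb is lowest in replicate 4 and Fcrls is, within each region, higher in replicates 2 and 4 than in 1 and 3.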

How the data were processed

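Per the submitters' processing notes, STAR 2.5.2b and featureCounts 1.5.1 were used with GRCm38, and the authors deposited raw read counts of each gene in each well. Which annotation release they used, and whether reads were counted by strand, is not given in the sources used here. Symbols came from GENCODE vM21, in which 48349 of 48709 gene identifiers were found. Counts of used wells were summed per replicate and region, since cells are not replicates. All 24 sums of the 6 untreated regions were fitted in edgeR 4.0.16 (R 4.3.3; TMM scaling, minimum count 10, minimum total 15, robust quasi-likelihood test). The contrast of cerebellum minus facial nucleus was adjusted by Benjamini-Hochberg over 22907 genes, with a threshold of 0.05, and was tested on simulated data. Errors of edgeR log2 fold changes are SEs back-calculated from the quasi-likelihood test. Each is the size of the change divided by the square root of the test's F statistic. Alternatives were DESeq2 1.42.0, limma 3.58.1, other scalings, gene and cell filters, other sets of sums, a replicate block and leaving out each sum. A fit of thinned cells, and sums of 3 lists without their leading members, were added after the data were seen. Members, gene lists and tests were chosen with earlier results of these data known.

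Named genes are called genes, the 12 with the smallest p in each direction (10 CPM or more, read in 10% of cells of the higher region, no predicted or clone symbols), Abca1, Abcg1, Cst3, microglia markers and up to 4 members per list and direction. Apoe, the other LXR members beside Abca1, Abcg1 and Apoc1, Ank, Ctsl, Serpine2, Gm26917, Gm42418 and the genes of the replicate number check were chosen after their values were seen. No doublet caller was run on wells sorted to hold 1 cell each. Replicate sums of a region differed far beyond counting noise (chi-square of 95.71 or more for each degree of freedom). The design text gives 3 to 4 mice per condition and says that untreated regions came from the same mice; whether equal numbers mark the same mouse was examined in the data, and the reported fit has no block.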

Additional observations from a re-analysis of the deposited data

Results flagged for a closer look

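Among 110 groups of 4 values examined, 8 had 1 value far from the other 3, and chance gives about 1 in 20. In facial nucleus, replicate 3 was lowest for Aagab (25.8 CPM, the others 50.6 to 52.3) and for Cd63 (21.4 CPM, the others 30 to 31.6). In cerebellum, replicate 3 was highest for Srsf5 (908 CPM, the others 675 to 712) and for Rasa1 (346 CPM, the others 110 to 142). Cerebellum replicate 2 was lowest for Hdac5 (25.7 CPM, the others 37.3 to 39.4) and highest for mt-Nd1 (2172.4 CPM, the others 1940 to 1974). Cerebellum replicate 1 was highest for Ccl4 (250 CPM, the others 12.4 to 17.8) and for the serine protease inhibitor gene Serpine2 (611 CPM, the others 260 to 271).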

How the results depend on the processing

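The number of genes called was 788 with DESeq2 (249 higher, 539 lower), 8 with limma voom, 5 among genes read in 20% of cells, and 2 both with no filter on low counts and with all 10 groups fitted. It was 0 with only these 2 groups, where 460 of 14325 genes had an unadjusted p under 0.05, 230 higher and 230 lower. It was also 0 for means of log values per cell (1680 genes, 88.9% of them lower against 67.3% in the reported fit) and 0 without CT010467.1 and mitochondrial genes (2568 genes). The lower share of such genes was 57.7% for thinned cells and 58% among genes read in 20% of cells. Leaving out 1 sum gave 1 to 2 calls, with Abca1 added without cerebellum replicate 3 and Jmjd4 without cerebellum replicate 4. A replicate block gave 2, CT010467.1 and Abca1. Over 9524 genes the same-number correlations were 0.00395, 0.00033, 0.0264 and 0.0104. Those of different numbers ran from -0.0273 to 0.0219 and so overlapped with them. Of 1088 gene values under 22 alternatives 4 changed sign. The log2 fold change of P2ry12 was 0.034 as reported, -0.00998 with DESeq2, -0.00646 among genes read in 20% of cells, and -0.0144 without facial nucleus replicate 1 to 0.0772 without cerebellum replicate 4; that of Lipa was -0.26 for means of log values per cell. Among genes read in 20% of cells, 8 of 8 LXR, 10 of 12 lipid and 13 of 20 disease-associated genes were higher. The cause of these changes was not tested. Shares of cells with a read kept their direction, as did the quality measures, except the share of wells used, which is 100% in both regions without a cell filter. With 4 sums a region, a p that misses the threshold does not show that a gene did not differ.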

Other observations

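Some further gene groups had no called member, and their counts are set here beside 45.4% of all genes higher in cerebellum. Among genes at 10 CPM or more, 53.8% were higher. Immune checkpoint genes were higher in 9 of 11 cases, with Lgals9 the lower gene at an unadjusted p under 0.05, and genes of clearance and phagocytosis in 14 of 21. Microglial transcription factors were higher in 12 of 20 cases, and Smad3, a mediator of TGF-beta signalling, was at 169 ± 57.4 CPM in cerebellum and 88.5 ± 16.4 in facial nucleus (adjusted p = 0.422 in edgeR). Immediate early genes were higher in 12 of 18 cases, with summed levels that overlapped (933 to 1439 and 952 to 1299 CPM). Ribosomal protein genes were higher in 21 of 46 cases, nuclear genes of oxidative phosphorylation in 20 of 36, glycolysis genes in 7 of 18 and interferon response genes in 11 of 24.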
